A study of Mus musculus with 4 samples.

Results

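Egr1, Egr2 and Egr3 encode early growth response factors, and Nab1 and Nab2 encode the corepressors that bind them. The contacts of these 5 promoters were taken from a list of significant chromatin interactions in mouse bone marrow-derived macrophages (BMDMs). Each interaction is a pair of 5-kb bins of the genome, and it was assigned to a gene where either bin contained the start (TSS) of at least 1 basic GENCODE M21 transcript that codes for protein. By this rule 81 of 237102 listed interactions belonged to the 5 promoters, against 148313 that involved any of 20720 protein-coding genes on the 19 autosomes. All positions are in mm10 and distances run between bin starts.

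EGR factors are zinc finger proteins that bind GC-rich sites, and their genes are classic immediate early genes, switched on within minutes by signals that run through ERK kinases and the serum response factor (SRF), which binds the CArG box. EGR1 and EGR2 bind NAB1 and NAB2, which recruit the nucleosome remodelling and deacetylase complex (NuRD) and dampen EGR activity, and NAB2 is itself induced by EGR factors, so that the pair forms a feedback loop. In macrophages EGR1 and EGR2 take part in differentiation from myeloid progenitors, and EGR2 marks alternative activation by interleukin-4 (IL-4).

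The study asked which distal elements contact promoters before and after IL-4. BMDMs of C57BL/6J mice, differentiated for 7 days, were either given 20 ng/mL IL-4 for 24 h (2 samples) or left untreated as basal BMDMs (2 samples), and no other allele or agent is given in the labels. HiChIP, a proximity ligation assay read out after immunoprecipitation, was directed at H3K4me3, the histone modification typical of active promoters. The list used here was called on the 4 samples merged, so IL-4-treated and basal cells could not be compared in it. Replicate error and the depth of each sample are unknown from it. The study itself compared the 2 conditions and reported no interaction that differed significantly between them.

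For each bin pair the list gives how many read pairs were observed and how many the authors' model expected. Their ratio is the measure used below, printed with a 95% exact Poisson interval that covers counting error only. Every listed pair had a ratio of at least 2 and a false discovery rate (FDR) of at most 0.01, over distances of 10 to 1000 kb. A bin without the mark enters such a list only as the partner of a marked bin. Which bins carried the mark was not examined, so numbers of interactions may compare marked with unmarked bins.

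The promoter sequences are shown first because the members differed in the motifs they hold. In the RefSeq promoter table for GRCm38.p6, in which each window covers 250 bases before a start and 50 after it, Egr2, Nab1 and Nab2 were matched, and Egr1 and Egr3 were not. Fixed consensus letters of 8 motifs were searched on both strands, and matches are in capitals. The first pair of windows belongs to Egr2, on the plus strand of chromosome 10, and the capitals mark CArG boxes.

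Egr2, chr10:67537619-67537918: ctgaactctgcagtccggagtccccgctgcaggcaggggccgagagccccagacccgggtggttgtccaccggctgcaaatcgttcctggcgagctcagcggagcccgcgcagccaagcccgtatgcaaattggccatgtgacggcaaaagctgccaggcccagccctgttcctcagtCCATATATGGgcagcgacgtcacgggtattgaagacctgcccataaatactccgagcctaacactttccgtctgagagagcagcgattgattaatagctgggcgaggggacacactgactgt

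Egr2, chr10:67537316-67537615: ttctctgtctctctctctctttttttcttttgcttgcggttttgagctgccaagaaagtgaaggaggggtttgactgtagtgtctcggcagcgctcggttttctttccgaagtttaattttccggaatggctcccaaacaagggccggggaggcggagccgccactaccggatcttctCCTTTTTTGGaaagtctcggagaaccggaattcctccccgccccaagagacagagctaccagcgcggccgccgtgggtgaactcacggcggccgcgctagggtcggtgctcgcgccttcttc

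The box CCATATATGG lay at bases 179 to 188 of the first window, whose start is that of the GENCODE transcript, and CCTTTTTTGG lay at the same bases of the window upstream. Of 31396 promoter windows on the autosomes used for sequence, 1.57% held a CArG box, and among 3406 windows with a GC content within 2 percentage points of the first Egr2 window the share was 1.17%. The other 7 motifs had no match in any of the 5 Egr2 windows in the table.

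The corepressor promoters were both GC-rich, on the minus strands of chromosomes 1 and 10, and they differed in matches to the EGR consensus GCGNGGGCG, which are the capitals below.

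Nab1, chr1:52500399-52500698: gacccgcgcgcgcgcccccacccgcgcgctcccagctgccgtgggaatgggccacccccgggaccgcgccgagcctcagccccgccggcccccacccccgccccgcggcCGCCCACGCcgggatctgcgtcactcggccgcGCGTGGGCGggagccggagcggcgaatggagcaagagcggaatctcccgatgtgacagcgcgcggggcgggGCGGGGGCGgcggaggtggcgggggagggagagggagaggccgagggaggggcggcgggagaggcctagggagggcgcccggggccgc

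Nab2, chr10:127666654-127666953: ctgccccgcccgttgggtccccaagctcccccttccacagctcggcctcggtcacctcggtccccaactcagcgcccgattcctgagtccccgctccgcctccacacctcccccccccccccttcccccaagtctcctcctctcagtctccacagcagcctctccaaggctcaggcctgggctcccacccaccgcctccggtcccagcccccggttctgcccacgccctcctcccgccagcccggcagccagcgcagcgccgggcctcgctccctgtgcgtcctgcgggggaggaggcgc

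The Nab1 window held 3 EGR matches, at bases 110 to 118, 142 to 150 and 213 to 221, of which the first was on the opposite strand. The Nab2 window held none. An EGR match occurred in 5.63% of all windows and 3 or more in 0.197%. GC content moves with this result. It was 81.7% in the Nab1 window and 74.0% in the Nab2 window, and among 314 windows within 2 percentage points of Nab1 48.7% held a match and 2.55% held 3 or more. Of 1289 windows as GC-rich as Nab2, 26.9% held a match. A match is a run of letters, not evidence that a factor was bound.

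All 5 promoters had at least 1 interaction, where 63.2% of all genes did. The members were chosen with earlier results of these data known, and Egr4, a relative outside the group, had none. Egr3 led with 54, followed by Egr2, Nab1 and Nab2 with 7 each and Egr1 with 6, against a median of 2 over all genes. Egr3 ranked 482 of 20720 genes, while 7 interactions gave rank 6395, shared with the other genes at that count, and Egr1 ranked 6879. Of the 81 interactions 20 (24.7%) had a ratio of at least 4, close to the 23.4% of all promoter interactions, and the members' median ratio was 2.99, as it was over all promoter interactions. A protein-coding TSS lay in both bins in 6 interactions (7.41%, against 7.34%). Both shares of the group lay near the background, and the members differed widely among themselves.

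**Figure D1:**
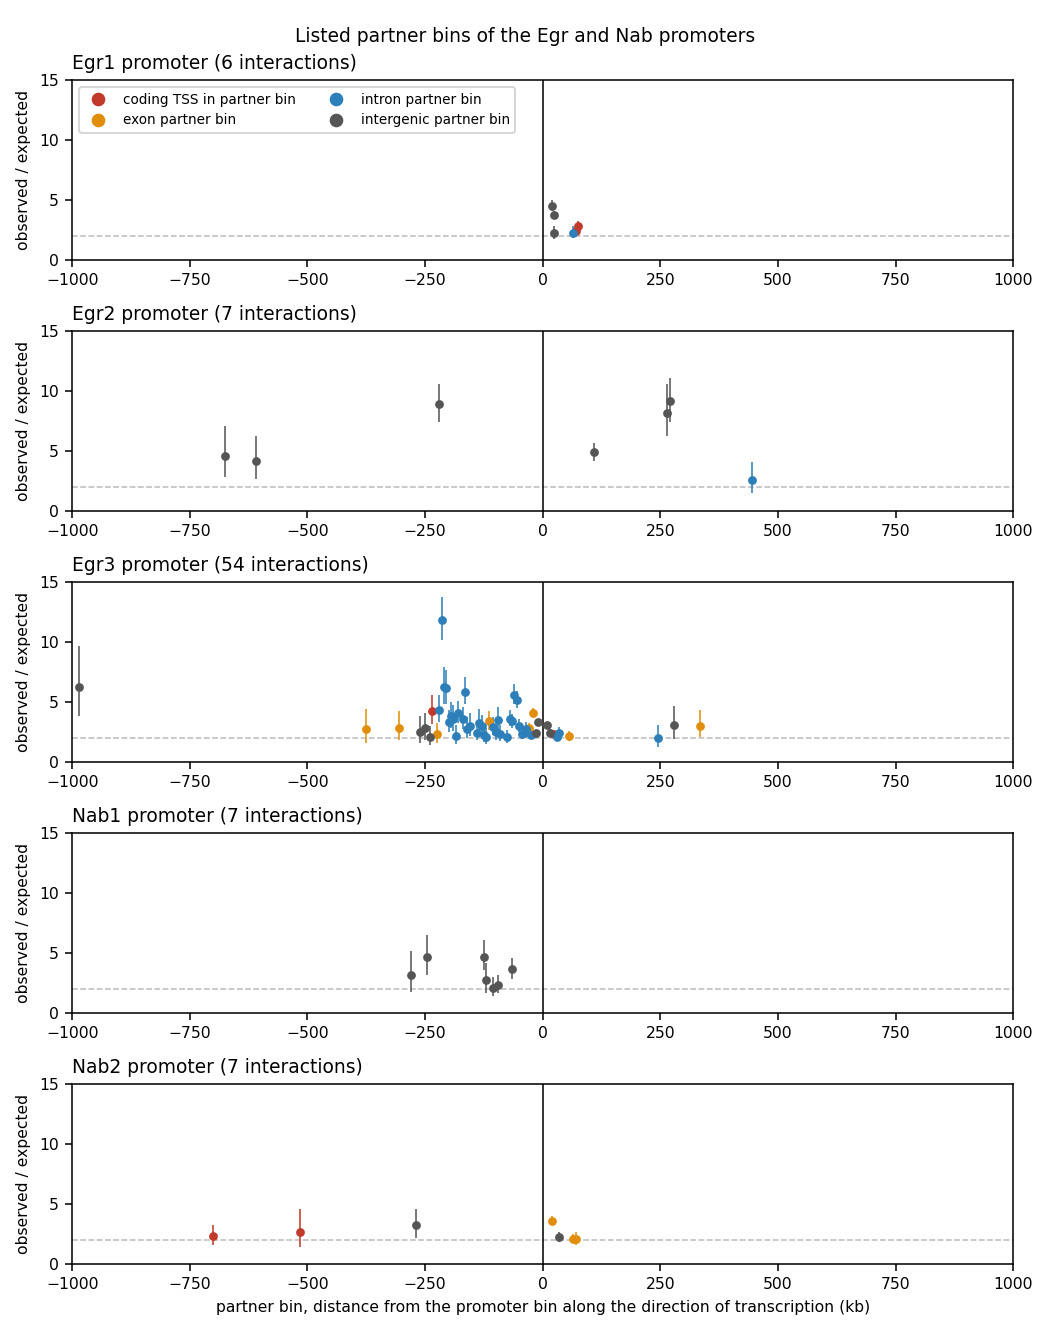
Partner bins of each promoter, with signed distance along the direction of transcription in kb on the horizontal axis and the ratio of observed to expected counts on the vertical axis. Bars are 95% Poisson intervals, the dashed line is a ratio of 2 and colours give the class of the partner bin. The 7 Egr2 partners lie 110 to 675 kb away, whereas the 45 upstream Egr3 partners form a dense run, and all 6 Egr1 interactions lie within 75 kb downstream.

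Egr2 (chr10:67537869-67542188, plus strand) had contacts that were mostly far from the gene and mostly had high ratios. Its promoter bin, chr10:67535001-67540000, had 7 interactions in 5 clusters of the authors' list, of which 6 had a ratio of at least 4. The partners were 6 intergenic bins and 1 in an intron of Rtkn2, and the nearest lay 110 kb away. Summed over all 7, 522 counts were observed where 84.8 were expected, a ratio of 6.16.

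The strongest Egr2 partner was chr10:67805001-67810000, 270 kb downstream, with 100 observed and 10.9 expected counts and a ratio of 9.14 (7.44 to 11.1). The bin next to it, chr10:67800001-67805000, had 60 observed counts and a ratio of 8.20 (6.26 to 10.6). On the other side, chr10:67315001-67320000 lay 220 kb upstream and had 128 observed counts and a ratio of 8.92 (7.44 to 10.6). These 3 intervals overlap, so the upstream and downstream partners cannot be ordered. Each of the 3 ratios was above at least 98.0% of the ratios of promoter interactions at a distance within 10% of its own, where medians were 2.95 to 3.08. The upstream bin had 48 other listed interactions. With the bin 225 kb downstream of the Egr2 promoter bin its ratio was 9.14, so a ratio this high was not particular to the Egr2 promoter.

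The remaining partners were weaker or nearer. The highest count, 172, was with chr10:67645001-67650000, 110 kb downstream, at a ratio of 4.91 (4.20 to 5.70). Farther upstream, chr10:66925001-66930000 at 610 kb had 24 counts and a ratio of 4.19 (2.69 to 6.24), and chr10:66860001-66865000 at 675 kb had 20 counts and a ratio of 4.58 (2.80 to 7.07). Both were singletons, clusters of 1 bin pair, and at such distances their ratios were unexceptional, above 61.7% and 66.1% of comparable promoter interactions. The Rtkn2 bin, chr10:67980001-67985000, at 445 kb, had 18 counts and a ratio of 2.57 (1.52 to 4.06).

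Of 18 pairs of Egr2 partner bins within the distance range, 2 were themselves listed, and 1 of these joined the upstream to the downstream side. A pair of 2 bins without the mark could not be listed, so the 18 need not all have been open to listing. The pair of chr10:67315001-67320000 and chr10:67800001-67805000, 485 kb apart with the Egr2 promoter between them, had 13 observed and 1.57 expected counts, a ratio of 8.28, whereas the strongest downstream bin was not listed with the upstream one. Bins on both sides of the Egr2 promoter bin reached the same partners at lower counts. The bin that holds most of the Egr2 gene body, chr10:67540001-67545000, had 3 interactions, all with Egr2 partners, and its ratio with chr10:67315001-67320000 was 8.10 at 64 counts. The bin upstream, chr10:67530001-67535000, had 2, with ratios of 8.14 at 40 counts and 4.60 at 17 counts.

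The neighbouring promoter of Ado, which encodes a thiol dioxygenase, was the most like Egr2 in its partners. The Ado promoter bin lies 10 kb downstream of the Egr2 bin, and Egr2 had 7 interactions, against 37 for Ado. They shared 3 partner bins, which is 42.9% of the Egr2 partners and 8.11% of the Ado partners. At chr10:67315001-67320000 the Egr2 promoter had 128 counts and a ratio of 8.92, against 33 counts and a ratio of 3.38 (2.32 to 4.74) for Ado. At chr10:67645001-67650000 the counts were 172 for Egr2 and 62 for Ado, with ratios of 4.91 and 2.01 (1.54 to 2.58). At chr10:67805001-67810000 they were 100 for Egr2 and 28 for Ado, with ratios of 9.14 and 3.68 (2.44 to 5.32). The intervals did not overlap at any of the 3 bins, with Egr2 the higher each time. Ado was in turn listed with 34 bins that were not listed with Egr2, and its highest ratio was 7.99, at chr10:67720001-67725000 with 107 counts. After Ado, the most like genes were Jmjd1c, which encodes a protein of the JmjC demethylase family, and Reep3, which encodes a protein that shapes the endoplasmic reticulum, each with 2 shared bins.

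**Figure D2:**
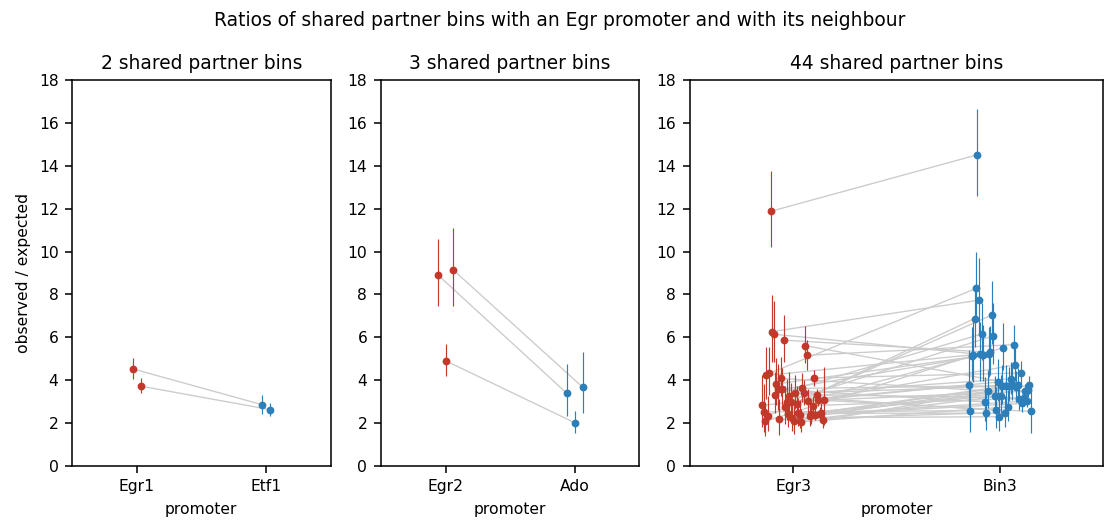
Ratios of observed to expected counts, on the vertical axis, for partner bins shared between an Egr promoter and a neighbouring promoter. Each grey line joins 1 partner bin and bars are 95% Poisson intervals. All 3 bins shared by Egr2 and Ado were higher with Egr2, whereas 36 of the 44 bins shared by Egr3 and Bin3 were lower with Egr3.

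Egr3 (chr14:70077203-70082550, plus strand) had the most interactions, and they ran upstream through another gene. Counted as clusters of the authors' list they were 8, against 5 each for Egr2 and Nab2, 3 for Nab1 and 2 for Egr1. Its promoter bin, chr14:70075001-70080000, had 54 interactions, 45 upstream and 9 downstream, with 6286 observed counts in all. By summed counts it ranked 147 of 20720 genes. Of the partner bins 37 lay in Pebp4, whose gene body fills the upstream side and which encodes a phosphatidylethanolamine-binding protein, and these held 3390 counts. The Pebp4 promoter itself had 3 interactions. Partners comprised 35 intron, 8 exon, 9 intergenic and 2 TSS bins, at a median distance of 127.5 kb.

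The strongest Egr3 partner stood apart from the rest of the run. The bin chr14:69860001-69865000, in a Pebp4 intron 215 kb upstream, had 181 observed and 15.2 expected counts, a ratio of 11.9 (10.2 to 13.7) that was above 99.6% of promoter interactions at like distance. The bins on either side of it, chr14:69855001-69860000 and chr14:69865001-69870000, had ratios of 4.31 (3.30 to 5.54) and 6.26 (4.85 to 7.96), and the next bin, chr14:69870001-69875000, had 6.14 (4.84 to 7.69). None of these intervals reached that of the strongest bin. Another Pebp4 intron bin, chr14:69910001-69915000 at 165 kb, had 111 counts and a ratio of 5.86 (4.82 to 7.06). The second highest ratio, 6.27 (3.83 to 9.69), belonged to a singleton 985 kb upstream, chr14:69090001-69095000, and rested on 20 counts.

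The highest Egr3 counts were close to the promoter. They were 650 at 10 kb upstream (chr14:70065001-70070000, ratio 3.32), 614 at 25 kb downstream (chr14:70100001-70105000, ratio 2.35) and 479 at 20 kb upstream (chr14:70055001-70060000, in a Pebp4 exon, ratio 4.10). The partner with 614 counts holds the TSS of Bin3, which encodes a BAR domain protein. The other partner with a coding TSS, that of Pebp4 at chr14:69840001-69845000, had 50 counts and a ratio of 4.22 (3.13 to 5.56).

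Egr3 and Bin3 shared most of their partners. The 44 shared bins were 81.5% of the 54 Egr3 partners and 59.5% of the 74 Bin3 partners. Observed counts were higher with Bin3 at 25 of the 44. The ratio was higher with Egr3 at 8 of the shared bins and lower at 36, and the intervals stood apart at 1 bin with Egr3 higher and at 12 with Bin3 higher. The bin where Egr3 was higher, chr14:70015001-70020000, had 167 counts and a ratio of 5.61 (4.79 to 6.53) with Egr3, against 87 counts and a ratio of 3.84 (3.07 to 4.73) with Bin3. The strongest partner was the same for both, and at chr14:69860001-69865000 Egr3 had a ratio of 11.9 and Bin3 had 14.5 at 204 counts. The next most like genes were 9930012K11Rik with 11 shared bins and Ccar2, which encodes a cell cycle and apoptosis regulator, with 9. Of 1387 pairs of Egr3 partner bins within the distance range, 68 were themselves listed, and the 5 with the highest ratios all had a bin of Bin3 as 1 end.

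**Figure D3:**
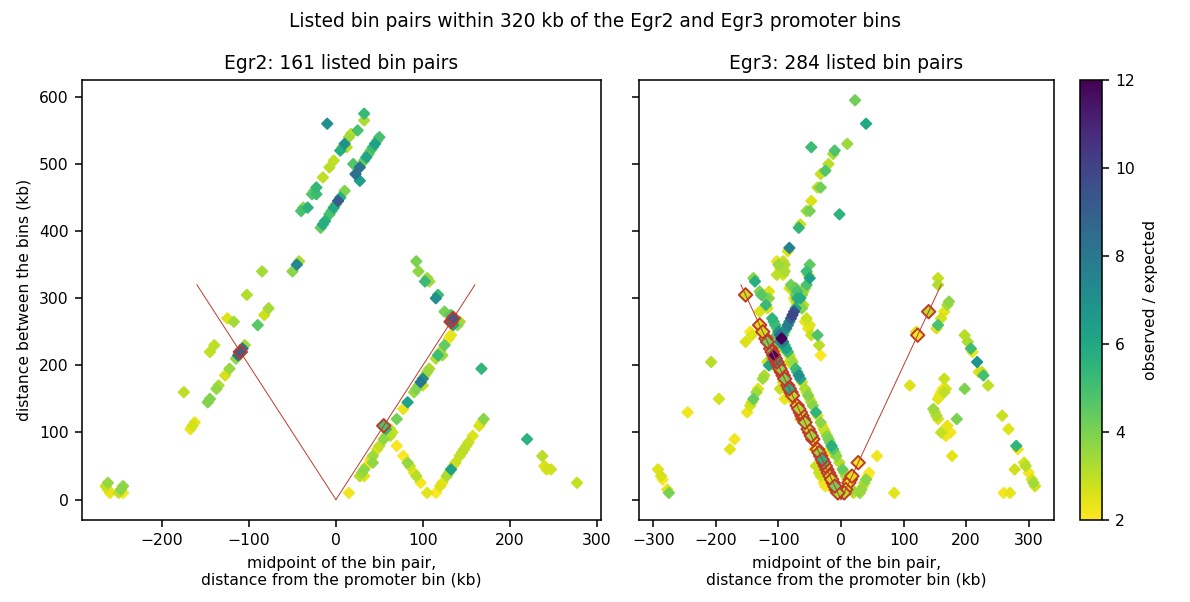
Listed bin pairs within 320 kb of the Egr2 promoter bin (161 pairs) and of the Egr3 promoter bin (284 pairs). The horizontal axis is the midpoint of a pair relative to the promoter bin and the vertical axis the distance between its bins, both in kb, colour is the ratio and red outlines mark pairs with the promoter bin itself, which fall on the red lines. Egr2 has isolated marks, while Egr3 has a continuous run on its upstream line beside a parallel run.

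Egr1 (chr18:34859823-34864984, plus strand) contacted only its downstream side, up to 75 kb. Its TSS fall in 2 bins, chr18:34855001-34860000 and chr18:34860001-34865000, since the upstream one lies 177 bp from a bin edge, and together these had 6 interactions with 4 partner bins. The strongest was chr18:34880001-34885000, intergenic and 20 kb from the second bin, with 358 counts and a ratio of 4.52 (4.07 to 5.02), above 98.9% of promoter interactions at like distance. The next bin, chr18:34885001-34890000, had the highest count, 437, and a ratio of 3.72 (3.38 to 4.09). From the first promoter bin, chr18:34880001-34885000 had 75 counts and a ratio of 2.24 (1.76 to 2.81).

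The other Egr1 partners belonged to Etf1, which encodes the translation termination factor eRF1. The bin with the Etf1 TSS, chr18:34930001-34935000, had 266 counts and a ratio of 2.38 (2.10 to 2.68) with the second Egr1 bin, and 146 counts and a ratio of 2.79 (2.35 to 3.28) with the first. An Etf1 intron bin, chr18:34925001-34930000, had 73 counts and a ratio of 2.28 (1.79 to 2.87). Etf1 itself had 91 interactions, and both intergenic Egr1 partners were also listed with it. They had higher ratios with Egr1, 4.52 and 3.72, than with Etf1, 2.85 (2.43 to 3.33) and 2.63 (2.34 to 2.94), with intervals apart. By the number of shared bins the genes most like Egr1 were Ube2d2a, for a ubiquitin-conjugating enzyme, with 3 of the 4 bins, and Lrrtm2 and Matr3, for a synaptic adhesion protein and a nuclear matrix protein, with 2 each, level with Etf1 and Dnajc18.

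**Figure D4:**
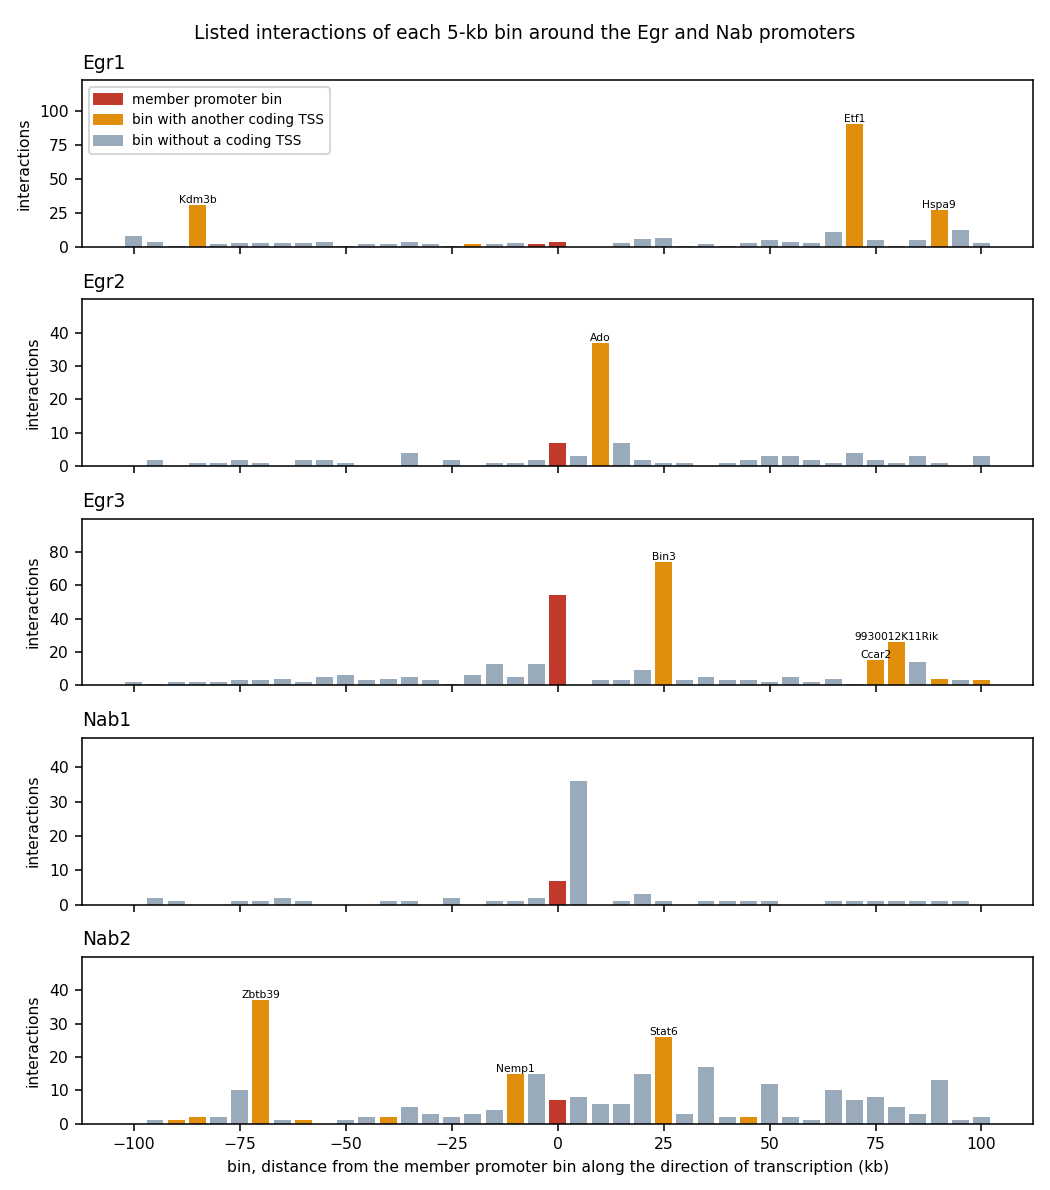
Number of listed interactions of each 5-kb bin within 100 kb of the 5 promoters, with distance along the direction of transcription in kb on the horizontal axis. Red bars are bins with a TSS of the member, orange bars are bins with another coding TSS (named where it has at least 8 interactions) and grey bars are other bins. The Egr2 bin has 7 beside 37 for Ado, the Egr3 bin has 54 beside 74 for Bin3, and the Nab1 bin has 7 beside 36 in the next bin inside the gene.

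Nab1 (chr1:52457294-52500679, minus strand) had 7 interactions, all upstream of the gene and all intergenic. Its main TSS lie 299 and 678 bp inside the bin chr1:52500001-52505000, and the bin of another TSS, chr1:52490001-52495000, had none. The highest ratios were 4.70 (3.58 to 6.05) at chr1:52625001-52630000, 125 kb away with 60 counts, and 4.64 (3.19 to 6.52) at chr1:52745001-52750000, 245 kb away with 33 counts. The highest count was 73, at chr1:52565001-52570000, 65 kb away, with a ratio of 3.64 (2.86 to 4.58). The 4 others were chr1:52595001-52600000 with 40 counts and a ratio of 2.34, chr1:52605001-52610000 with 30 and 2.07, chr1:52620001-52625000 with 20 and 2.70, and chr1:52780001-52785000 with 15 and 3.15. The intervals of these 4 overlap, so they cannot be ordered.

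The Nab1 count depends on where the bin edge falls. The next bin inside the gene, chr1:52495001-52500000, holds no TSS. The promoter bin had 7 interactions, against 36 in that bin, 25 of them on its upstream side and 11 on its downstream side. That bin shared 6 of the 7 Nab1 partner bins, with higher counts at all 6 and overlapping intervals of the ratio at each. No other promoter shared more than 1 partner bin with Nab1, and those that shared 1 included 1700019D03Rik and Nemp2, for a nuclear envelope protein.

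Nab2 (chr10:127660918-127666710, minus strand) shared its only promoter bin, chr10:127665001-127670000, with Nemp1, a gene for a nuclear envelope protein on the other strand, and contacts of the pair cannot be told apart. Of its 7 interactions none had a ratio of 4 or more, and the median was 2.31. The strongest was with the neighbouring gene of the IL-4 signal transducer Stat6. The Stat6 exon bin chr10:127645001-127650000, 20 kb downstream, had 359 counts and a ratio of 3.61 (3.25 to 4.01), above 93.7% of promoter interactions at like distance. The Stat6 TSS lies 1 bin farther, at chr10:127640001-127645000, and was not a listed partner of Nab2. That Stat6 promoter bin had 26 interactions and shared 2 partners with Nab2, chr10:127600001-127605000 and chr10:127935001-127940000, at ratios whose intervals overlap.

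The other Nab2 partners were near the lower limit of the list or rested on few counts. Downstream, an exon bin of the endocytic receptor gene Lrp1, chr10:127600001-127605000, had 108 counts and a ratio of 2.10, and the Lrp1 bin beside it, chr10:127595001-127600000, had 63 counts and a ratio of 2.09. Intergenic chr10:127630001-127635000 had 120 counts and a ratio of 2.20. Upstream, chr10:127935001-127940000 at 270 kb had 31 counts and a ratio of 3.23 (2.19 to 4.58). The bin with the TSS of Rbms2, for an RNA-binding protein, lay 515 kb away and had 12 counts and a ratio of 2.64 (1.36 to 4.61). That of Coq10a, for a coenzyme Q-binding protein, lay 700 kb away and had 33 counts and a ratio of 2.31 (1.59 to 3.24). The ratio to Coq10a was above only 0.978% of promoter interactions at like distance. The genes most like Nab2 were Nemp1, with all 7 partner bins by its shared promoter bin, Naca with 5 and Ptges3 with 4, for a ribosome-associated factor and a co-chaperone, the last level with Timeless.

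Ratios in the whole list were higher at long distances, and the median over all promoter interactions was 2.50 at 10 kb and 4.52 between 900 and 1000 kb. Set against interactions at like distance, the members' ratios had a median percentile of 58.5. At or above the 90th percentile were 4 of 7 for Egr2, 7 of 54 for Egr3, 2 of 6 for Egr1, 1 of 7 for Nab1 and 1 of 7 for Nab2. Below the median were 1 for Egr2, 26 for Egr3, 3 for Egr1, 3 for Nab1 and 5 for Nab2.

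**Figure D5:**
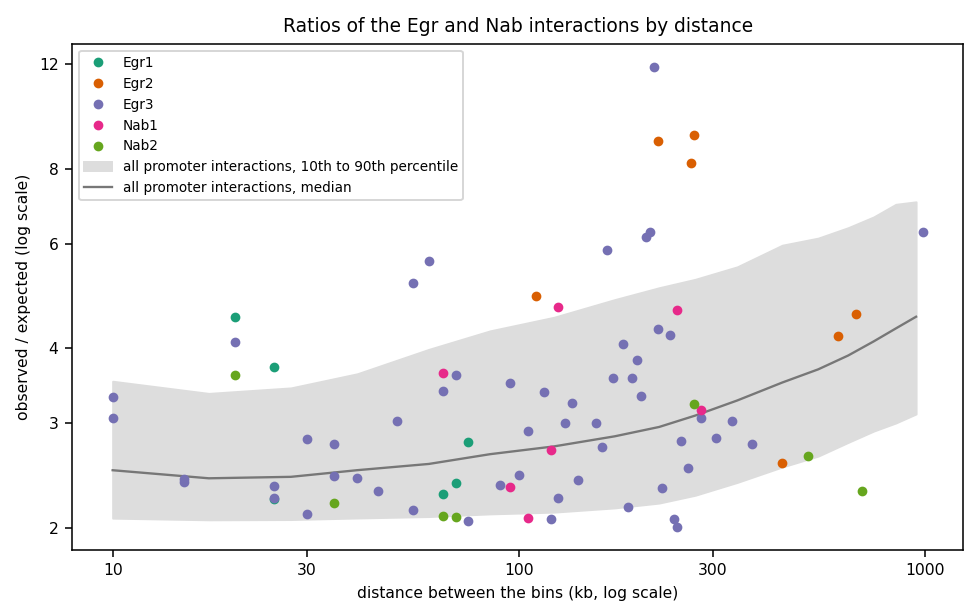
Ratio of observed to expected counts against the distance between bins in kb, both on log scales, for the 81 interactions of the 5 promoters. The grey line is the median and the grey band the range between the 10th and 90th percentiles of all 148313 promoter interactions. The Egr2 points between 200 and 300 kb and the strongest Egr3 point stand above the band, while most Nab2 points lie near its lower edge.

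The strongest partner bins were searched for the same consensus motifs, and the CTCF core CCANNAGNNGGC, bound by the architectural factor CTCF, is shown because the leading upstream and downstream bins of Egr2 and the leading bin of Egr3 each held it. The Nab1 bins chr1:52625001-52630000 and chr1:52745001-52750000, with its highest ratios, also held it. The Egr2 bin chr10:67800001-67805000 and the leading Nab2 bin, chr10:127645001-127650000, did not. Capitals mark the match, and 20 bases of GRCm38 plus strand flank it on each side.

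Egr2 partner 220 kb upstream, chr10:67319192-67319243: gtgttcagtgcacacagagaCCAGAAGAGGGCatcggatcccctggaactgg

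Egr2 partner 270 kb downstream, chr10:67805349-67805400: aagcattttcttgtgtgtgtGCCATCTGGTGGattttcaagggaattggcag

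Egr3 partner 215 kb upstream, chr14:69861556-69861607: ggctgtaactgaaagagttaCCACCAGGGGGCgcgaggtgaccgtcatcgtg

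Egr3 partner 215 kb upstream, chr14:69862658-69862709: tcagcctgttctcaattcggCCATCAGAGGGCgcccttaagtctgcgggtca

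The match was on the plus strand in the upstream Egr2 bin, on the minus strand in the downstream Egr2 bin and on the plus strand at both places of the Egr3 bin. Of 93540 partner bins of any promoter 35.7% held at least 1 CTCF match, and so did 3 of 7 for Egr2, 19 of 54 for Egr3, 2 of 7 for Nab1 and 3 of 7 for Nab2. The STAT consensus TTCNNNNGAA occurred in 74.5% of all partner bins and in 6 of 7 for Egr2, 35 of 54 for Egr3, 5 of 7 for Nab1 and 5 of 7 for Nab2. The AP-1 consensus TGANTCA occurred in 78.2% of all, and in 7 of 7 for Egr2, 47 of 54 for Egr3, 6 of 7 for Nab1 and 6 of 7 for Nab2. The PU.1 consensus GAGGAAGT occurred in 28.0% of all, and in 3 of 7 for Egr2, 16 of 54 for Egr3, 3 of 7 for Nab1 and 4 of 7 for Nab2. Motifs this frequent in 5 kb say little about any 1 bin.

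The EGR consensus was in 3.62% of all partner bins and in 0 of 7 for Egr2, 2 of 54 for Egr3, 1 of 7 for Nab1 and 1 of 7 for Nab2. The cAMP response element TGACGTCA was in 3.63% of all, in 2 for Egr3 and 1 for Nab2, the C/EBP consensus TTGCGCAA in 0.549% of all and in 1 for Egr3. A CArG box was in 23.0% of all partner bins, in 1 of 7 for Egr2, 8 of 54 for Egr3, 4 of 7 for Nab1 and 0 of 7 for Nab2. Sequence of chromosome 18, with Egr1, was not used here.

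The family and pathway around the members were read by the number of interactions per promoter. The relatives Egr4 and Wt1, which encode zinc finger factors with similar GC-rich sites, had none. All 13 genes of the ERK and SRF input list had at least 1, where 63.2% of all genes did, with a median of 10 against 2, led by Elk3 (37), Mrtfb (28) and Map2k1 (24). All 6 of the IL-4 input list had at least 1, with a median of 26, led by Jak1 (29), Tyk2 (28) and Il4ra (26), the last level with Stat6. Of 12 NuRD subunit genes 10 had at least 1 (median 18.5), led by Mta2 (40), Gatad2b (30) and Gatad2a (22), and Hdac2 and Mta3 had none.

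Among 14 genes known as EGR targets 11 (78.6%) had interactions, where 63.2% of all genes did, with a median of 7.5 against 2. They included the tissue factor gene F3 (42) and Tgfb1 (28), and 3 of the 14 were at 0. Of 23 other immediate early genes 18 (78.3%) had interactions (median 10), led by Jun (189), Klf10 (62) and Ier5 (50). The other 5 had none, among them Myc and Nr4a3. With 54, Egr3 would stand behind Jun and Klf10 in that list, while Egr1 and Egr2 would fall below its median. These lists were chosen with results of the same data known, and their counts are descriptions. Of the macrophage markers all 10 had interactions, led by Mertk (42), Spi1 (36) and Adgre1 (25), with a median of 12. Other cell types had markers at 0, 2 of 4 for T cells, 2 of 4 for B cells and 1 of 4 for neutrophils. So did fibroblasts or endothelium, with 1 of 4, and hepatocytes, with 1 of 2. Of all 20720 genes 7627 were at 0, so a marker at 0 says little about cell type. The T cell gene Lck had 32, the endothelial gene Pecam1 26 and the hepatocyte gene Apoa1 13. The part of other cell types in the members' contacts was not tested.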

How the data were processed

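H3K4me3 HiChIP was performed on 2 samples of IL-4-treated and 2 of basal C57BL/6J BMDMs, with MboI digestion and 75-bp paired ends per the labels, and samples were grouped by title. Bowtie2, bedtools and the mm10 build appear in the submitters' processing notes. The study's methods state that bin pairs were called with MAPS at 5000 bp, using H3K4me3 peaks as anchors. Calls were made per sample, per condition and on all samples merged, and the list used here is the merged one. The MAPS model accounts for distance and enrichment, so ratios depend on its fit. The deposited list gives an observed count and an expected count per bin pair, the size of each cluster as a count, a p-value adjusted as FDR by the authors, and a deposited cluster −log10 p that was not used. No value per sample is given, so counts summed over the list are not a sequencing depth, p-values were not computed, and all values are descriptions.

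Expected counts were used as deposited, without rounding. Partner bins were classed by the protein-coding models of GENCODE M21 as TSS, exonic, intronic or intergenic. Like distance means within 10%. Motifs were searched in RefSeq windows (GRCm38.p6) and in GRCm38 bins with at most 10% unknown bases, and chromosome 18 was left out of sequence work. Counting and motif search were tested on simulated data. The members and lists were chosen with earlier results of these data known. Genes named were the members, all their interactions (for Egr3 the 5 highest ratios and 3 highest counts), coding genes with a TSS in a partner bin, the 3 genes sharing most partner bins and the 3 leading genes per list. Some genes that this rule selects are not reported here. Neighbouring promoters and bins compared with the members, and further Egr3 bins, were chosen after their values were seen. Alternatives changed the TSS rule, FDR, count, ratio, cluster and distance limits, the ranking and the EGR consensus. Python 3.11.15, numpy 2.4.6, pandas 2.3.3, scipy 1.17.1 and matplotlib 3.10.9 were used.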

Additional observations from a re-analysis of the deposited data

How the results depend on the processing

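The 81 interactions became 142 where a TSS within 2500 bp of a bin also counted, 20 at a ratio of at least 4 and 23 with 1 per cluster. The median ratio of 2.99 became 3.35 at an FDR under 1e-06 and 5.03 at a ratio of at least 4. The other 22 values of the total, the median ratio and the number of members with an interaction stayed within 1.5 times or the interval of the median (2.70 to 3.32). At a ratio of at least 4 Nab2 had 0. With the wider TSS rule Nab1 had 44 interactions and Nab2 15, and with the outermost TSS only Egr1 had 2. At an FDR under 1e-06 Nab1 had 3 and Nab2 4. At a ratio of at least 4 Egr3 had 11, Nab1 2 and Egr1 1. With 1 per cluster Egr3 had 8, Nab1 3 and Egr1 2. By count in place of ratio the strongest partner was at 25 kb for Egr1, 110 kb for Egr2, 10 kb for Egr3 and 65 kb for Nab1. By summed count Egr1 ranked 2861. With GCGTGGGCG only, EGR matches in partner bins numbered 2 rather than 4. Totals and medians moved with the interactions that each alternative adds or leaves out, and the cause of the other changes was not tested.

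No paired analysis was possible because the list is pooled over samples, and leaving out a replicate or comparing IL-4-treated with basal BMDMs was not run for the same reason. Counting error is widest, relative to the value, for the contacts with the lowest counts, such as Nab2 with Rbms2 at 12.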
